A study of Mus musculus with 10 samples.

Results

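The Toll-like receptors and their adaptors were examined as a set of 10 genes, given as a fixed list of symbols among the 53715 genes counted in each library. The set holds Tlr1, Tlr2, Tlr4 and Tlr6, whose proteins sit at the cell surface, Tlr3, Tlr7, Tlr9 and Tlr13, whose proteins sit in endosomes, the co-receptor gene Cd14 and the adaptor gene Myd88. Each symbol matched a single gene identifier, and all 10 genes had enough counts to be tested in both cohorts.

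The libraries are bulk RNA sequencing of microglia, the resident macrophages of the brain, from the midbrain (Mdb) and the striatum (Str) of untreated male C57BL/6 J mice aged 3 months, without any transgene. Cells were enriched with magnetic beads against CD11b, an integrin that other myeloid cells also carry, so the preparation was not restricted to microglia by a second marker. The study checked purity by flow cytometry for CD45 and CD11b. It reports nearly all of the enriched cells as microglia, with a small share of infiltrated myeloid cells. Poly-A RNA was read with MARS-seq, which sequences the 3′ ends of transcripts. A pilot cohort gave 2 Mdb and 2 Str libraries, and a second cohort gave 2 Mdb and 2 Str libraries that could be assigned, while 2 further libraries of that cohort carry labels that name both regions and were left out of the comparisons. By the study's account both regions were taken from the same mice, so midbrain and striatum libraries share animals, but the labels do not say which. The tests treat the libraries as independent, and p-values measure the spread between these samples. The question was whether the receptors that sense microbial and damage signals differ in level between midbrain and striatal microglia of healthy mice.

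Toll-like receptors recognise conserved microbial molecules and products of damaged cells. The surface receptors bind lipids and proteins of microbes, TLR4 with the help of CD14 for lipopolysaccharide, and the endosomal receptors bind nucleic acids. All of the receptors in the set except TLR3 signal through MYD88, which recruits IRAK kinases and leads to NF-kB and IRF transcription factors and to cytokine genes such as Tnf and Il1b. Microglia are known to express these receptors, and TLR4 is the one through which lipopolysaccharide acts on them.

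The genes are spread over the mouse genome (GRCm38). Tlr1 (chr5:64924679-64933563) and Tlr6 (chr5:64952031-64960097) are neighbours on the minus strand of chromosome 5. Tlr2 lies at chr3:83836272-83841767, Tlr4 at chr4:66827584-66930284 and Tlr3 at chr8:45395665-45411080. Tlr7 (chrX:167304929-167330558) and Tlr13 (chrX:106143204-106160493) are on chromosome X, and Tlr9 (chr9:106222598-106226883) and Myd88 (chr9:119335934-119341411) on chromosome 9. The counting did not use strand and left out reads that overlapped more than 1 gene. Exons of Tlr3 shared 7.32% of their bases with Gm45542 and exons of Myd88 shared 11.3% with Acaa1a, both on the opposite strand, and reads from those bases entered neither gene. The exons of the other 8 members overlapped no other gene.

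Tlr1 and Tlr6 are paralogs, and part of their coding sequence is identical, which limits how well their reads can be told apart. Of all 50-base stretches of the longest annotated transcript, 15.3% of those of Tlr1 and 12.5% of those of Tlr6 also occur in the other gene. The longest identical stretch is 229 bases long, is coding throughout, and lies on the minus strand at chr5:64925537-64925765 in Tlr1 and at chr5:64953828-64954056 in Tlr6. It is shown because a read from within it could not be assigned to either gene.
Tlr1 and Tlr6, shared coding stretch: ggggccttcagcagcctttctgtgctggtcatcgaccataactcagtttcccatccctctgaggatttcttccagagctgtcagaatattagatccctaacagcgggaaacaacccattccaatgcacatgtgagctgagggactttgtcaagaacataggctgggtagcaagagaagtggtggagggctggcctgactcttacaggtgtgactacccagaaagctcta
The last 50-base stretch shared between the genes ends 469 bases before the end of the Tlr1 transcript and 1408 bases before that of Tlr6. The ends of both transcripts, which the 3′ protocol reads, therefore hold no shared stretch of that length, and reads from further upstream remain uncertain between Tlr1 and Tlr6.

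Cd14 was not searched, and promoter sequences from RefSeq (GRCm38.p6) were found for 7 of the other members. The 250 bases before the start were searched on both strands for GGAAGT, a core bound by ETS-family factors such as PU.1, the lineage factor of macrophages and microglia. The letters occurred in 3 of the 9 promoters of these members (33.3%), those of Tlr1, Tlr2 and Tlr6, and in 19.7% of all 32851 promoters searched in the same way. The windows around all matches in the members are shown. These 3 genes encode TLR2 and its partners. Capitals mark the searched letters (the complementary letters where the match is on the opposite strand).
Tlr1, chr5:64933559-64933609, minus strand: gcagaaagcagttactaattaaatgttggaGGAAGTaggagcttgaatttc
Tlr2, chr3:83841609-83841668, minus strand: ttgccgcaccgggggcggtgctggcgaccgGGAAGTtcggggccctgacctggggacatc
Tlr6, chr5:64959193-64959258, minus strand: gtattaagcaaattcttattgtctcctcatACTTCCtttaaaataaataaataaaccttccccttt
The first base of the match lies 21 bases before the start in Tlr1, 30 in Tlr2 and 62 in Tlr6. The windows of Tlr2 and Tlr6 lie inside the gene extents given above, so the starts used there are not the outermost annotated ones. A match of letters is a description of the sequence and not a binding site.

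The total counts of the 8 assigned libraries ranged from 575709 in Str replicate 3 of the second cohort to 8463782 in Str replicate 2 of the pilot cohort, so that 3 counts corresponded to 5.21 and 0.354 CPM (counts scaled to the library total). All 10 microglia markers (such as P2ry12 and Tmem119) were detected in every library. Their summed level was 11835 to 13412 CPM in Mdb and 16709 to 17844 in Str of the pilot cohort, and 13251 to 14907 in Mdb and 18500 to 23143 in Str of the second cohort. All 10 had lower fitted levels in Mdb over both cohorts, 2 of them past the adjusted threshold. Markers of other cells that carry CD11b were higher in Mdb. Over both cohorts, 6 of 10 neutrophil markers, 2 of 7 monocyte markers and 6 of 8 markers of brain border macrophages rose in Mdb, as did 1 of 6 T and NK cell markers tested and 1 of 8 immediate early genes. No marker of B cells, dendritic cells, astrocytes, neurons, oligodendrocytes or endothelium passed (limma). The second Mdb libraries held a summed 4321 to 6730 CPM of neutrophil markers and 687 to 2960 of monocyte markers, against 970 to 1053 and 132 to 259 in the second Str libraries. In these bulk samples fewer cells of a type and less RNA per cell cannot be told apart.

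The members differed far more from each other than between regions. Levels were compared between genes as CPM with TMM scaling factors (TMM CPM), divided by the exon length in kilobases. Because the protocol reads 3′ ends, counts need not grow with exon length, and this division favours short genes such as Cd14 (1572 bases). Levels without it are therefore given as well. Per kb, Cd14 had the highest mean level, 686 TMM CPM per kb (from 383 to 1109 over the 8 libraries), which was 9.36 times that of the next gene. The gap was smaller without division by length, with means of 1078 TMM CPM for Cd14 and 221 for Tlr2. Tlr2, the receptor for bacterial lipoproteins, followed with 73.2 TMM CPM per kb (43.9 to 141). Next came Myd88 with 45.8 (38.5 to 62.7) and Tlr13, a receptor for bacterial ribosomal RNA, with 33.6 (25.9 to 57.6). These first 4 ranks per kb were the same in all 8 libraries.

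Below them, Tlr1, which pairs with TLR2, had a mean of 15.4 TMM CPM per kb (12.02 to 20.9) and Tlr7, a receptor for single-stranded RNA, 14.7 (4.78 to 27.2). Tlr1 was above Tlr7 in 5 of 8 libraries, and the pair did not differ beyond the spread over libraries. Tlr4 had 5.87 (3.09 to 15.2) and Tlr6, another partner of TLR2, 4.37 (2.44 to 8.30), with Tlr4 above Tlr6 in 5 of 8 libraries. Neither of these pairs had a fixed order.

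The lowest members were Tlr3, a receptor for double-stranded RNA, with 0.854 TMM CPM per kb (0.404 to 1.32), and Tlr9, a receptor for unmethylated CpG DNA, with 0.632 (0 to 1.67). Tlr3 was above Tlr9 in 5 of 8 libraries, so their order is not fixed either. Both were below Tlr6 in every library, as the plot of levels shows. The mean level of the highest member was 1084 times that of the lowest per kb, and 490 times in TMM CPM. Without division by length the order changed in that Tlr13 passed Myd88 and Tlr7 passed Tlr1. On that scale Cd14, with a mean of 1078 TMM CPM, made up 62.6% of the summed level of the members and lay above 99.3% of the genes tested, while Tlr4, with 32.6, lay above 63.9% and Tlr9, with 2.20, above 10.6%.

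**Figure D1:**
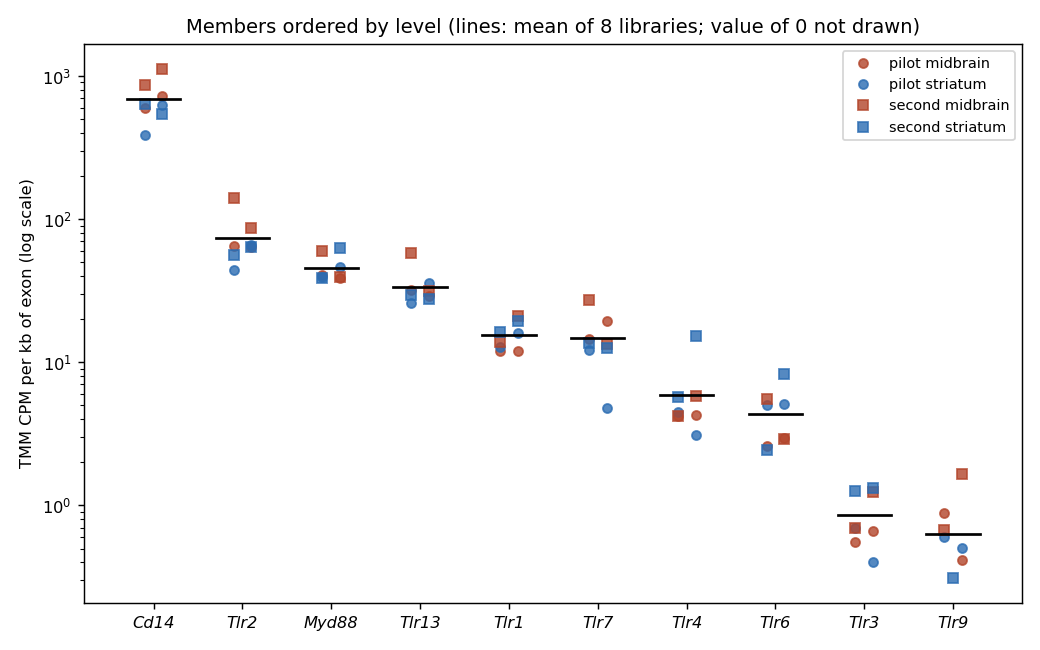
Level of each member in TMM CPM per kb of exon (log axis), ordered by the mean of the 8 libraries (black line). Circles are pilot and squares second cohort libraries, red for Mdb and blue for Str; the value of 0 for Tlr9 in 1 second Str library is not drawn. Cd14 stands above all others in every library, and Tlr3 and Tlr9 below all others.

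Between regions, no member passed the test in either cohort or in both together, while a few lay near its threshold. With limma on voom-transformed counts, 0 of the 10 members had an unadjusted p under 0.01 in the pilot cohort, where 2.64% of all 14972 genes tested did, and 0 of 10 in the second cohort, where 3.47% of 13486 genes did. In the fit over both cohorts, 0 of 10 had an adjusted p under 0.05, where 1.06% of 14053 genes did. At an unadjusted p under 0.05 there were 2 members in the pilot cohort (Tlr6 and Tlr7), where 1626 of 14972 genes were. There were 2 in the second cohort (Tlr2 and Cd14), where 1431 of 13486 genes were. Over both cohorts there were 3 (Cd14, Tlr7 and Tlr2), where 2046 of 14053 genes were. At the same thresholds the quasi-likelihood test of edgeR called 0 members in each of these fits, and DESeq2 called 1 in the pilot cohort (Tlr7) and 0 in the others. Over both cohorts 5 members had higher and 5 lower fitted levels in Mdb, with a median log2 fold change (Mdb over Str) of 0.11, against 0.044 over all genes tested.

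Ranked by the fitted difference over both cohorts, the members ran from Tlr7 (0.93) through Tlr9 (0.80), Cd14 (0.57), Tlr2 (0.55), Tlr13 (0.23), Myd88 (−0.01), Tlr3 (−0.10), Tlr4 (−0.13) and Tlr1 (−0.16) to Tlr6 (−0.43) on the log2 scale. It differed from the order by level, in which Cd14 was highest and Tlr9 lowest. The groups did not overlap for 3 of 10 members in the pilot cohort (Tlr7 above in Mdb, Tlr1 and Tlr6 below), where 42.8% of all genes tested did not overlap, and for 5 of 10 in the second cohort (Tlr2, Tlr9, Tlr13 and Cd14 above, Tlr3 below), where 41.8% did not. The separation of Tlr9 takes a count of 0 in the shallowest library at face value. No member was separated in both cohorts. With 2 libraries a group, separation alone was thus common among all genes.

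**Figure D2:**
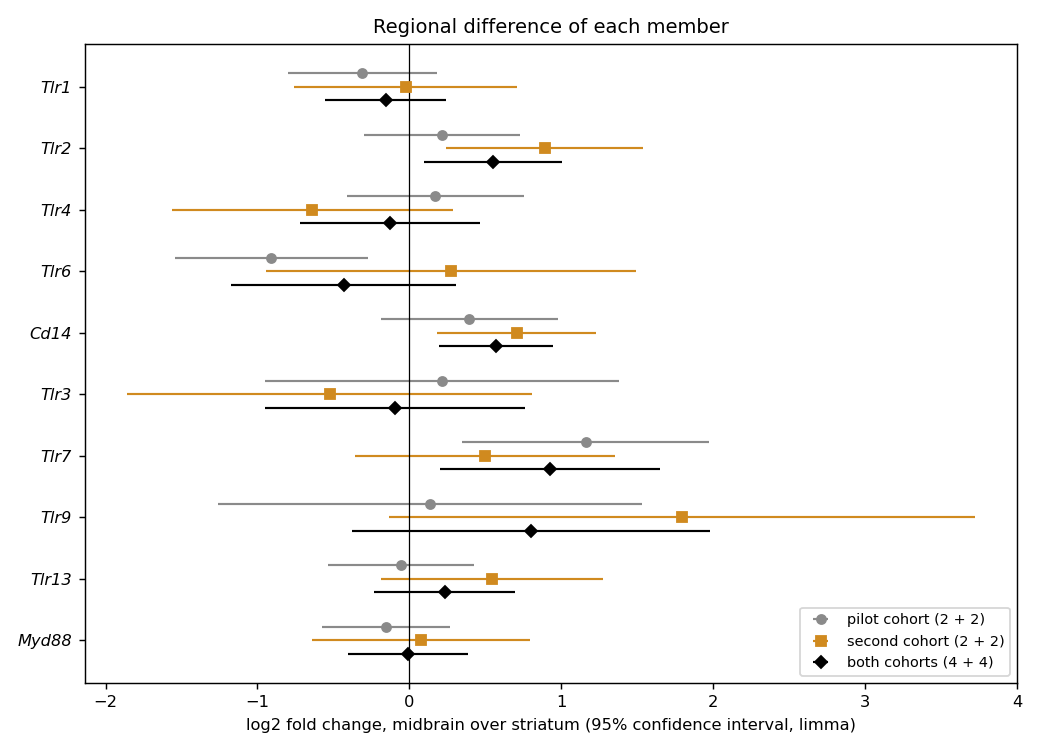
Fitted log2 fold change of each member, Mdb over Str, with its 95% confidence interval (limma), in the pilot cohort (grey circles), the second cohort (orange squares) and both together (black diamonds). The interval over both cohorts lies above 0 for Cd14, Tlr2 and Tlr7 and includes 0 for the other 7.

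Among the surface receptors, Tlr4 was at 23.3 and 23.7 TMM CPM in pilot Mdb and at 24.8 and 17.2 in pilot Str. Second Mdb held 23.3 and 32.3 and second Str 32.0 and 84.2 TMM CPM. The value of 84.2 stands apart from the other 7 libraries, comes from the shallowest library, and rests on 49 counts, with an exact Poisson 95% interval of 62.3 to 111 TMM CPM that covers counting error only.

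The regions overlapped in both cohorts for Tlr4. Fitted log2 fold changes were 0.17 (SE 0.26) in the pilot cohort, −0.64 (SE 0.42) in the second and −0.13 (95% confidence interval −0.72 to 0.47, limma adjusted p = 0.864) over both, which leaves room for a change from 0.606-fold to 1.38-fold. Without Str replicate 1, when only the shallow library stood for Str, the log2 fold change in the second cohort was −1.66. Without Str replicate 3, the outlying library, the change was −0.24 in the second cohort and 0.03 over both, and without pilot Str replicate 2 the pilot change was −0.09. The second cohort gave −0.98 with edgeR (unadjusted p = 0.0472) and −1.02 with DESeq2 (unadjusted p = 0.0494), which did not pass 0.01. In each fit that left 1 library in a group, that library was assumed to vary like the rest, so only the change is given.

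Tlr2 was at 197 and 191 TMM CPM in pilot Mdb and at 132 and 199 in pilot Str, where the groups overlapped. Second Mdb held 424 and 261 and second Str 170 and 191 TMM CPM, so that both Mdb libraries were higher. Its log2 fold change was 0.21 (SE 0.23) in the pilot cohort and 0.89 (SE 0.30, limma unadjusted p = 0.0118) in the second.

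Over both cohorts the change of Tlr2 was 0.55 (95% confidence interval 0.10 to 1.00, limma adjusted p = 0.245). Single libraries moved it in both directions. The pilot change was 0.55 without Str replicate 2 and −0.10 without Str replicate 1. The change in the second cohort was 1.29 without Mdb replicate 3 and 0.57 without Mdb replicate 1. The change over both cohorts was 0.33 without that Mdb replicate 1. A block for the replicate number gave 0.95 in the second cohort (limma unadjusted p = 0.00093). That block takes the title number as marking the mouse, which the labels do not give. The library with the highest Tlr2, second Mdb replicate 1, also held the highest summed neutrophil markers (6730 CPM) and monocyte markers (2960 CPM), and the part of those cells in the Tlr2 values was not tested.

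The genes of the 2 TLR2 partners had negative fitted changes over both cohorts. Tlr1 was at 40.2 and 40.3 TMM CPM in pilot Mdb and at 42.9 and 53.6 in pilot Str, with Mdb below. It was at 46.7 and 69.8 in second Mdb and at 54.2 and 65.3 in second Str, where the groups overlapped. Its log2 fold change over both cohorts was −0.16 (95% confidence interval −0.55 to 0.24, limma adjusted p = 0.737).

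Tlr6 was at 9.76 and 11.02 TMM CPM in pilot Mdb and at 18.8 and 18.9 in pilot Str, a tight separation with Mdb lower. It was at 20.8 and 10.9 in second Mdb and at 9.09 and 30.9 in second Str, so that each region held a high and a low library. The values of second Str rest on 25 and 18 counts. Its fitted log2 fold change was −0.91 (SE 0.28, limma unadjusted p = 0.0103) in the pilot cohort, 0.27 (SE 0.55) in the second by limma and −0.43 (95% confidence interval −1.17 to 0.31, limma adjusted p = 0.6) over both. In the pilot cohort Tlr6 passed the threshold with sample quality weights (−0.91, limma unadjusted p = 0.00861), and its change was −0.93 without Str replicate 1. The sign in the second cohort is not settled. The mean was lower in Mdb, 15.9 against 20.0 TMM CPM, and the change was −0.13 with edgeR and −0.23 with DESeq2. With limma it was −1.09 without Str replicate 1, 0.72 without Str replicate 3, −0.11 without Mdb replicate 1 and 0.84 without Mdb replicate 3. Over both cohorts it was −0.95 without second Str replicate 1 and −0.71 without second Mdb replicate 1.

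Cd14, the co-receptor that hands lipopolysaccharide to TLR4, had the lowest p-value of the set over both cohorts. It was at 943 and 1139 TMM CPM in pilot Mdb and at 603 and 977 in pilot Str, which overlapped. Second Mdb held 1359 and 1744 and second Str 1005 and 852 TMM CPM, with both Mdb libraries higher. The log2 fold change was 0.39 (SE 0.26) in the pilot cohort and 0.71 (SE 0.24, limma unadjusted p = 0.0128) in the second.

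Over both cohorts Cd14 was 1.49 times higher in Mdb (log2 fold change 0.57, 95% confidence interval 0.20 to 0.94, limma unadjusted p = 0.00606, adjusted p = 0.143), which did not pass the adjusted threshold. Pilot Str replicate 2, the deepest library, decided this call. Without it the change over both cohorts was 0.74 (limma adjusted p = 0.0249) and that of the pilot cohort 0.78. Without pilot Str replicate 1 the pilot change was instead 0.02, so it rests on which Str library is kept. With sample quality weights the change over both was 0.71 (limma adjusted p = 0.0181), and over all alternatives the adjusted p lay between 0.0181 and 0.772.

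In the second cohort Cd14 passed the threshold with a block for the replicate number (0.70, limma unadjusted p = 0.0043). The labels do not say whether that number marks the mouse. The change in the second cohort was 0.91 without Mdb replicate 1. The Cd14 change over both cohorts was positive under all 18 alternatives. The summed immediate early genes, which rise quickly when cells are handled or stimulated, were at 16937 to 19174 CPM in pilot Mdb and 12121 to 18602 in pilot Str, and at 16462 to 19895 in second Mdb and 8802 to 9072 in second Str. Markers of border macrophages were at 1885 to 2253 CPM in pilot Mdb, 960 to 1315 in pilot Str, 2523 to 3011 in second Mdb and 610 to 701 in second Str. The part of either in the Cd14 values was not tested.

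**Figure D3:**
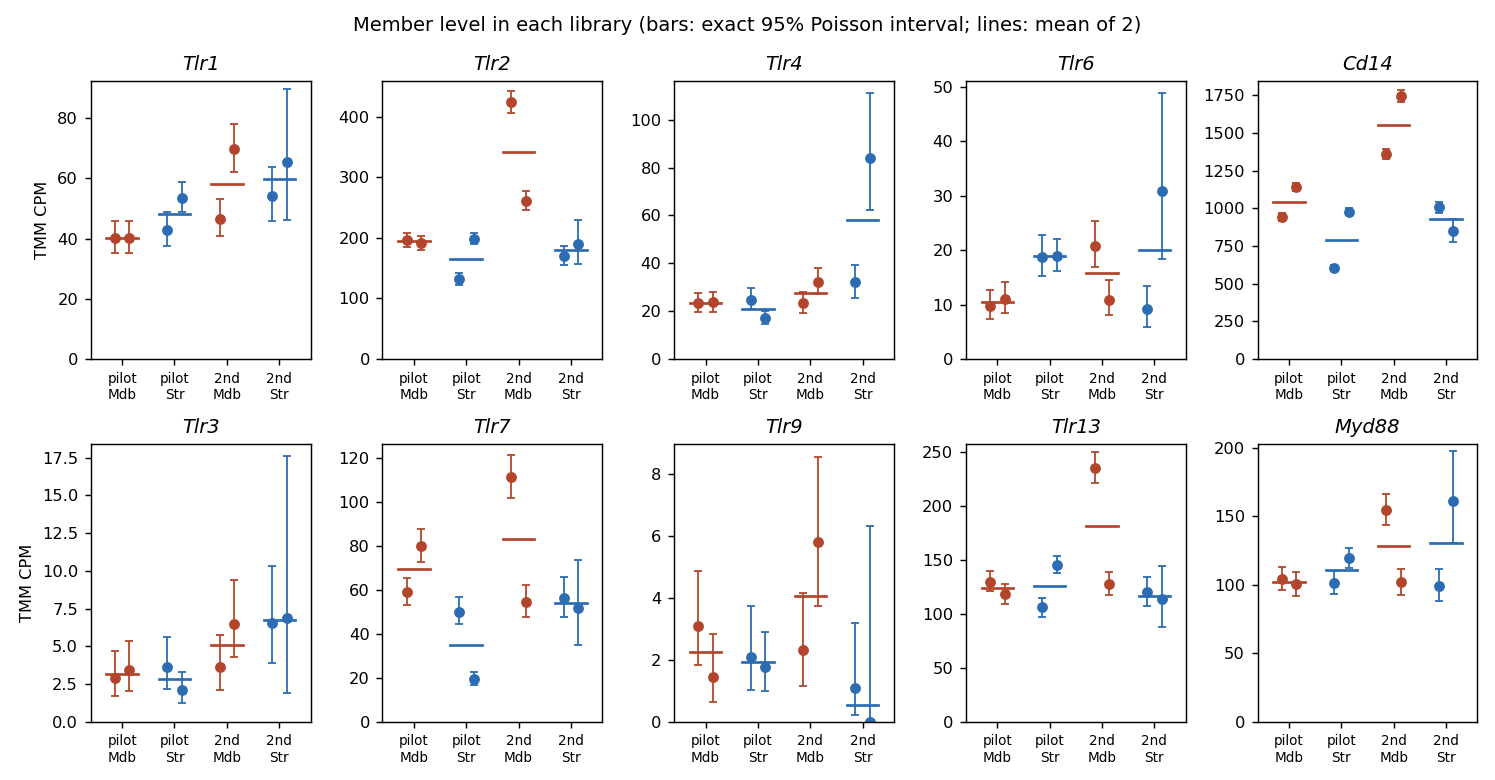
Level of each member in each library in TMM CPM (linear axes from 0), with its exact Poisson 95% interval (bars, counting error only) and the mean of the 2 libraries of a group (lines), red for Mdb and blue for Str. The regions are separate for Tlr1, Tlr6 and Tlr7 in the pilot cohort and for Tlr2, Tlr3, Tlr9, Tlr13 and Cd14 in the second; Tlr3, Tlr4, Tlr6 and Myd88 are highest in the shallow second Str library.

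Among the endosomal receptors, Tlr7 had the largest fitted difference in the pilot cohort and over both cohorts, while Tlr9 and Tlr13 had larger ones in the second cohort. Tlr7 was at 58.9 and 79.8 TMM CPM in pilot Mdb and at 50.1 and 19.5 in pilot Str, with both Mdb libraries higher. It was at 111 and 54.5 in second Mdb and at 56.0 and 51.6 in second Str, so that 1 Mdb library was high and the other 3 libraries lay close together. The log2 fold change was 1.16 (SE 0.36, limma unadjusted p = 0.0102) in the pilot cohort, just outside its threshold, and 0.50 (SE 0.39) in the second.

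Over both cohorts Tlr7 was 1.90 times higher in Mdb (log2 fold change 0.93, 95% confidence interval 0.20 to 1.65, limma adjusted p = 0.221). In the pilot cohort it passed the threshold with DESeq2 (0.98, unadjusted p = 0.00919) and with sample quality weights (1.14). It also passed with no filter on low counts (1.13) and with a minimum of 10 counts in each library (1.19). In limma the pilot change was 1.38 without Mdb replicate 1 and 1.74 without Str replicate 1. The last of these rests on Str replicate 2 alone, at 19.5 TMM CPM the lowest value of the gene. In the second cohort the change of Tlr7 was 1.06 without Mdb replicate 3.

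Other alternatives took the difference of Tlr7 away. Without pilot Str replicate 2 the pilot change was 0.44, the change over both cohorts 0.48, below the 0.99 of Tlr9 in that fit, and the difference between cohorts 0.05 instead of −0.70. Without second Mdb replicate 1 the change in the second cohort was 0.01. With counts thinned to the smallest library, the change over both cohorts was 0.23.

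Tlr13 was at 129.9 and 118 TMM CPM in pilot Mdb and at 106 and 146 in pilot Str, which overlapped. Second Mdb held 236 and 128 and second Str 120.4 and 113 TMM CPM, with Mdb above. One library, second Mdb replicate 1, lay far above the other 7, as it did for Tlr2 and Tlr7. The log2 fold change over both cohorts was 0.23 (95% confidence interval −0.24 to 0.70, limma adjusted p = 0.664), and it was −0.0002 without that library. In the second cohort the change of Tlr13 was 1.03 without Mdb replicate 3 and 0.13 without Mdb replicate 1.

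Tlr3 and Tlr9 were too low for a firm statement. Tlr3 was at 2.91 and 3.43 TMM CPM in pilot Mdb, 3.603 and 2.10 in pilot Str, 3.61 and 6.50 in second Mdb and 6.55 and 6.87 in second Str, on 4 to 28 counts a library. Its log2 fold change over both cohorts was −0.10 (95% confidence interval −0.95 to 0.76, limma adjusted p = 0.93). At this depth the interval runs from 0.517-fold to 1.69-fold.

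Tlr9 was at 3.08 and 1.44 TMM CPM in pilot Mdb and 2.09 and 1.75 in pilot Str. In second Mdb it was at 2.33 and 5.801, while second Str held 3 counts (1.09 TMM CPM) in one library and 0 in the other. The exact Poisson 95% interval of that count of 0 reaches 6.34 TMM CPM. That is above both second Mdb libraries. Over the summed counts of the second cohort, 36 in Mdb and 3 in Str, the ratio was 4.43 (exact 95% interval 1.40 to 22.5, counting error only). The log2 fold change over both cohorts was 0.80 (95% confidence interval −0.38 to 1.98, limma adjusted p = 0.531). The median log2 fold change over the members in the second cohort was 0.38.

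Myd88, the adaptor, varied least over the 8 libraries, with its highest library 1.63 times its lowest. It was at 104 and 100.4 TMM CPM in pilot Mdb and at 101 and 119.8 in pilot Str. Second Mdb held 155 and 102 and second Str 99.3 and 162 TMM CPM. The regions overlapped in both cohorts, and the log2 fold change over both was −0.01 (95% confidence interval −0.40 to 0.39, limma adjusted p = 0.988), which allows from 0.756-fold to 1.31-fold in that fit. With counts thinned to the smallest library the change was −1.03 (limma unadjusted p = 0.0891), outside this interval. It was −0.22 without second Str replicate 1 and −0.16 without second Mdb replicate 1.

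The change between regions was compared between cohorts with an interaction term. With limma, 0 of 10 members passed an adjusted p under 0.05, where 0% of the 14053 genes did, and 0 of 10 members had an unadjusted p under 0.05, although 771 genes did; edgeR and DESeq2 called 0 members as well. The largest differences, second minus pilot cohort, were 1.65 for Tlr9 (SE 1.04), 1.13 for Tlr6 (SE 0.65) and −0.80 for Tlr4 (SE 0.52) on the log2 scale. The changes of Tlr4 and Tlr6 were thus not shown to differ between the cohorts, and the second-cohort sign of Tlr6 turned with the tool.

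Between cohorts, all 10 members had higher fitted levels in the second cohort, with a median log2 fold change of 0.41, against −0.022 over all genes tested. The sign was not firm for Tlr6 (0.03, SE 0.35), which kept it in 10 of 17 alternatives. Tlr9 (0.18, SE 0.53) kept it in 13 of 15. With limma, 0 of 10 passed an adjusted p under 0.05, where 10.5% of all genes tested did. An unadjusted p under 0.05 was reached by 3 of 10 members, and by 4089 of the 14053 genes tested. The 3 members were Cd14 (0.43, adjusted p = 0.122), Tlr2 (0.49, 0.144) and Tlr3 (0.94, 0.136). The edgeR and DESeq2 fits called 0 members. Without pilot Str replicate 2, limma called Tlr2 (0.66, adjusted p = 0.0312) and Cd14 (0.60, 0.0169), and the same pair was called with sample quality weights. The highest library of every member was one of the second cohort: Mdb replicate 1 for 3 members (Tlr2, Tlr7, Tlr13), Mdb replicate 3 for 3 (Cd14, Tlr1, Tlr9) and Str replicate 3 for 4 (Tlr3, Tlr4, Tlr6, Myd88). Cohort, preparation and depth cannot be told apart here.

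The rest of the pathway was followed in 9 lists from receptors to induced genes. The lists up to the kinases held no gene that passed over both cohorts. Of the other Toll-like receptors, 0 of 3 tested passed over both cohorts by limma, with a median of −0.56. Tlr12, an endosomal receptor for profilin of parasites and the highest of them (15.3 TMM CPM per kb), was lower in pilot Mdb, at 48.8 and 56.2 TMM CPM against 77.2 and 85.3 in Str (log2 fold change −0.68, limma unadjusted p = 0.00662). Second Mdb held 23.1 and 28.5 TMM CPM against 38.2 and 30.9 in second Str, and the change over both cohorts was −0.60 (limma adjusted p = 0.103). Both Mdb libraries were below both Str libraries in each cohort. Tlr8 was not tested, with counts in 1 library of 8.

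Among 5 co-receptors and accessory genes, 0 passed over both cohorts by limma, with a median of 1.08. Ly86, which encodes the partner of CD180, was the highest at 946 TMM CPM per kb (log2 fold change −0.29, limma adjusted p = 0.271). Ly96, chosen after its values were seen because it encodes MD-2, the part of the TLR4 complex that holds lipopolysaccharide, was at 0.38 to 1.81 TMM CPM in the pilot libraries, 3.18 and 1.86 in second Mdb and 0 in both second Str libraries. Its mean was 1.18 TMM CPM per kb, near that of Tlr3 and far below that of Cd14. The log2 fold changes over both cohorts were 1.47 for Ly96, 1.08 for Lbp, 1.08 for Cd36 and −0.06 for Cd180 (limma adjusted p from 0.194 to 0.900).

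Of 4 adaptors 0 passed (median 0.06), with Ticam1, the TRIF adaptor of TLR3 and TLR4, the highest at 13.3 TMM CPM per kb and a log2 fold change of 0.07 (limma adjusted p = 0.884). Of 11 chaperones and endosomal proteins 0 passed, 9 of them at lower and 2 at higher fitted levels in Mdb (median −0.11). The highest was Ctss, a protease that cleaves endosomal receptors, at 7897 TMM CPM per kb (−0.35, limma adjusted p = 0.381). Of 13 kinases and ubiquitin ligases 0 passed (median −0.02). Irak1, the highest at 26.4 TMM CPM per kb, had a log2 fold change of −0.02 (limma adjusted p = 0.972). Ikbke was called in the second cohort (3.58, limma unadjusted p = 0.00901), at 21.6 and 4.87 TMM CPM in Mdb and 0.73 and 0 in Str, a low gene with 1 high library.

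Of 7 transcription factor genes, Irf7 rose in Mdb and the other 6 did not pass (median −0.20). Irf7, the interferon regulatory factor downstream of TLR7 and TLR9, was at 86.3 and 57.6 TMM CPM in pilot Mdb against 29.8 and 40.7 in Str, and at 115 and 93.8 in second Mdb against 25.5 and 13.8 in Str. The groups did not overlap in either cohort (log2 fold change 1.38, SE 0.27, limma adjusted p = 0.041). Irf8, a factor of the microglial lineage and the highest at 117 TMM CPM per kb, had −0.21 (limma adjusted p = 0.473). Of 7 inhibitors 0 passed over both cohorts, with a median of 0.56. Nfkbia, the gene of the NF-kB inhibitor and the highest at 940.0 TMM CPM per kb, was called in the second cohort (0.85, limma unadjusted p = 0.00459), at 2320 and 1714 TMM CPM in Mdb and 1196 and 981 in Str.

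At the far end of the pathway, 2 of 9 induced cytokine and chemokine genes rose over both cohorts, with a median of 1.83. Il1b was at 562 and 505 TMM CPM in pilot Mdb against 145 and 108 in Str, and at 2283 and 777 in second Mdb against 194 and 273 in Str (log2 fold change 2.33, SE 0.30, limma adjusted p = 0.0137). Ccl5 was at 212 and 182 against 23.1 and 52.7 in the pilot cohort, and at 387 and 259 against 89.5 and 13.8 in the second (2.43, SE 0.34, limma adjusted p = 0.0174). For both genes the Mdb libraries were higher in each cohort. Exons of Il1b shared 1.31% of their bases with the antisense gene Il1bos, and those of Irf7 1.19% with Phrf1 on the opposite strand. Markers of neutrophils (median log2 fold change 1.59), monocytes (2.14) and T and NK cells (1.92) were also higher in Mdb over both cohorts, and second Mdb replicate 1, the library with the highest Il1b, held the highest summed neutrophil markers. The part of those cells in the Il1b and Ccl5 values was not tested.

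In the pilot cohort 2 of 9 genes of this list were called, Il1b and Ccl5, while Tnf (0.45), Il10 (1.67), Ccl2 (0.94) and Ccl3 (0.14) were not. In the second cohort, where 3.47% of all genes were called, 6 of 8 were called higher in Mdb, namely Il1b, Ccl5, Tnf (1.38), Il10 (3.93), Ccl2 (2.85) and Ccl3 (1.26). The highest of the list was Ccl3, at 1905 TMM CPM per kb, with 0.71 over both cohorts (limma adjusted p = 0.179). Of 3 genes for protein ligands of TLR4, S100a8 (2.82, SE 0.57, limma adjusted p = 0.042) and S100a9 (3.08, SE 0.47, 0.0181) rose. S100a9, the highest of this list at 1544 TMM CPM per kb, was at 345 and 213 TMM CPM in pilot Mdb, above both pilot Str libraries, and at 3913 and 1362 in second Mdb against 308 and 198 in second Str. S100a8 and S100a9 are also abundant neutrophil genes and stand among the neutrophil markers above, and the part of neutrophils in these values was not tested.

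**Figure D4:**
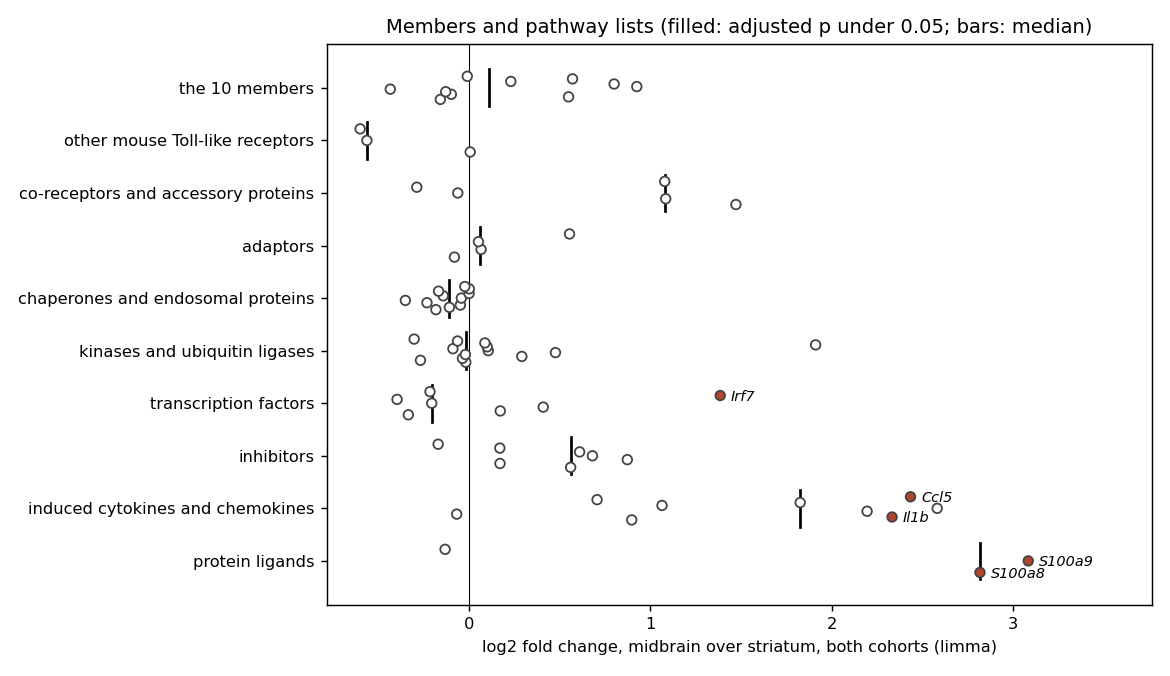
Log2 fold change over both cohorts, Mdb over Str, of the 10 members and of each tested gene of the 9 pathway lists (points, filled where the limma adjusted p is under 0.05), with the median of each list (bars). Irf7, Il1b, Ccl5, S100a8 and S100a9 are filled, and no member is.

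The genes whose pattern was most like that of Tlr4 were sought over the 8 libraries by Pearson's r of log2 CPM, among 7036 genes that reached 10 counts in each of them. The 5 closest were Impa1 (r = 0.990), Seh1l (0.977), Ubxn8 (0.973), Pkib (0.969) and Tnpo1 (0.967). All 5 were highest in second Str replicate 3, the shallowest library, with Impa1 at 55.0 TMM CPM there against 22.0 to 32.0 in the other 7. The likeness is a description over libraries that share their depth differences, and it rests largely on that library.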

How the data were processed

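The members, the pathway lists and the marker lists were chosen with earlier results of these data known. The authors aligned MARS-seq reads to GRCm38 with STAR 2.5.3a and counted them over exons with featureCounts 1.6.0 (Gencode M17), and deposited raw counts per gene for 10 libraries. Molecular identifiers are not named in the sources used here, so these were treated as read counts, and intervals and floors cover counting error only. Of 53715 identifiers, 53620 were matched to a symbol. Replicates were taken from the titles. In the second cohort 2 libraries (titled Mdb 2 and Str 2) have file names that give the other region and were left unassigned.

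A gene was left out of a fit where over 50% of its libraries had under 6 counts. Counts were scaled with TMM factors (edgeR 4.0.16) and fitted with voom and limma 3.58.1 in R 4.3.3. Each cohort was tested for region at a two-sided unadjusted p under 0.01, following the study's methods. The fit over both cohorts had cohort as a covariate, and it, the interaction and the cohort term were tested at a Benjamini-Hochberg adjusted p under 0.05 over all genes tested. Levels are means over 8 libraries. Fold changes are midbrain over striatum. Genes were named from the pathway lists where they were called in a fit or had the highest level per kb of their list. The co-receptor and accessory genes were all named. The regions share mice, but the labels do not give the pairs, and the fits had no block. Deviations from the group means were correlated between libraries of the same title number (−0.034 in the pilot and 0.078 in the second cohort). With 2 libraries a group, the 2 pairs mirror each other, and the other pairing would only turn the sign. The correlations therefore cannot tell whether the numbers track the mice. In the second cohort the titles and the file names number the libraries differently. The procedure was tested on simulated counts. Results were recomputed with DESeq2 1.42.0, with the quasi-likelihood test of edgeR, with library size scaling, no filter, at least 10 counts in every library, a replicate block, thinning to the smallest library, sample quality weights, both placements of the 2 unassigned libraries, a threshold on the adjusted p within cohorts, and leaving out each library in turn. The study's flow cytometry was not analysed here.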

Additional observations from a re-analysis of the deposited data

How the results depend on the processing

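The number of members called was 0 in the pilot cohort and became 1 with DESeq2, without a filter and with at least 10 counts in every library, and 2 with sample quality weights. In the second cohort it was 0 and became 1 without a filter, 1 with the 2 unassigned libraries placed by file name, and 2 with the replicate block (Tlr2 and Cd14). Over both cohorts it was 0 and became 1 with sample quality weights. For the second against the pilot cohort it was 0 and became 2 with sample quality weights and 1 with the libraries placed by file name (Tlr3, 1.25). Leaving out each library in turn gave 0 to 2 members in the pilot cohort, 0 to 3 in the second, 0 to 1 over both and 0 to 2 between cohorts. Within a single cohort, each of these fits left 1 library in a group, so their counts are listed only and not read as calls. The share of all genes that passed is not given for the alternatives, so their counts cannot be set against a background. The replicate block gave 0 members in the pilot cohort and 0 over both, and it could not be fitted for the cohort term, in which it is nested. The interaction gave 0 members in every alternative run. The median log2 fold change of the members over both cohorts was 0.11 and ranged from −0.09 (thinned) to 0.24 over the alternatives. Under CPM without length, 6 of the 10 ranks by level were kept. The cause of these changes was not tested. Depth limits Tlr3, Tlr9 and the shallow second Str library most.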

Other observations

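The 2 libraries that the labels put in no region were given values on the same scale. In the library titled Mdb 2, with 1584013 counts, Tlr4 was at 38.5, Tlr2 at 202, Tlr7 at 79.5, Tlr13 at 151 and Cd14 at 1053 TMM CPM, each within the range of the 8 assigned libraries. Tlr1 at 84.4, Tlr3 at 15.3 and Tlr9 at 7.34 TMM CPM were above that range. In the library titled Str 2, with 5194739 counts, Cd14 was at 1433, Tlr2 at 235, Tlr7 at 52.5 and Tlr4 at 24.6 TMM CPM, within the range, and Tlr6 at 8.82 was below it.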
